A study of Homo sapiens with 10 samples.

Results

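The plasminogen activation system was followed through 4 genes, PLAU, PLAT, PLAUR and SERPINE2, which were found by their symbols among 26256 genes in the counts of untreated cells and among 55736 genes in the counts of a drug experiment. All 4 passed the filter on low counts in both. PLAU encodes urokinase (uPA) and PLAT encodes tissue plasminogen activator (tPA), the serine proteases that cut the inactive plasminogen into plasmin. PLAUR encodes the urokinase receptor (uPAR), which is anchored in the cell membrane by a lipid and holds urokinase and its precursor at the cell surface. SERPINE2 encodes protease nexin-1, a secreted serpin that traps urokinase, tPA, plasmin and thrombin. Plasmin degrades fibrin and matrix proteins, and in breast epithelium the system is known for its part in tissue remodelling, migration and invasion. Ras signalling is known to reach genes of the system through the AP-1 and ETS transcription factors.

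MCF10A is a non-transformed, immortalized line of human mammary epithelial cells, and its RNA was sequenced in 2 libraries labelled as parental. G12V cells are MCF10A cells with the HRas oncogene (genotype H-RAS Gv12), also in 2 libraries. The oncogene was brought in by lentivirus together with a GFP vector, and the cells were selected with hygromycin and stopped growing at first before they grew again, so the oncogene, the vectors and the selection cannot be told apart in this comparison. In a separate experiment, parental MCF10A cells received 10 µM Nutlin-3a, a small molecule that frees p53 from MDM2, or DMSO alone for 4 h, in 3 libraries each. All cells grew in medium with EGF, insulin, hydrocortisone, cholera toxin and horse serum, so EGF, a growth factor upstream of Ras, was present in the control groups as well.

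Between 21538593 and 23683975 reads per library were counted in genes in the untreated cells and between 15453226 and 17378734 in the drug experiment. HRAS rose from 69.3 ± 4.77 to 573 ± 82.0 CPM (CPM are counts scaled to a common library size, SD, n = 2), and the p53 targets CDKN1A and MDM2 rose after Nutlin-3a from 654 ± 26.7 to 2916 ± 375 CPM and from 113 ± 10.3 to 656 ± 153 CPM (SD, n = 3). Of 8 mammary epithelial markers, all reached 1 CPM on average in MCF10A, DMSO and Nutlin-3a cells, but 4 did in G12V cells, where KRT14, KRT17, CDH1 and TP63 were under 1 CPM. The other 4 did not move alike between the MCF10A and G12V means. KRT8 was at 195 and 222 CPM and KRT18 at 334 and 204 CPM, while KRT5 was at 4195 and 1078 CPM and EPCAM at 48.2 and 6.72 CPM. The summed level of the 8 markers was 6856 to 8415 CPM in MCF10A, 1363 to 1662 CPM in G12V, 3488 to 5948 CPM in DMSO and 3753 to 6402 CPM in Nutlin-3a cells. Of 4 fibroblast markers, COL1A1 and DCN were above 1 CPM in every group while COL3A1 was at 0 or near it, and their sum was 37.0 to 64.3 CPM in MCF10A and 51.8 to 58.0 CPM in G12V cells, and 24.6 to 148 CPM over the drug experiment. The sum of 3 leukocyte markers was 12.2 to 12.4 CPM in MCF10A and 37.3 to 72.7 CPM in G12V cells, nearly all of it CD68, with PTPRC and CD3E at 0 in G12V cells. In the drug experiment the leukocyte sum was at most 0.132 CPM. Endothelial markers summed to at most 3.68 CPM. The epithelial sum and CD68 thus differed between MCF10A and G12V cells, as did the genes below, and their part in those results was not tested. The fibroblast sums overlapped between those groups, and the epithelial sums between DMSO and Nutlin-3a cells. In such bulk RNA, fewer cells that express a gene and less RNA per cell cannot be told apart.

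RefSeq start sites on GRCh38.p14 gave the 250 bases before a start for 3 of the 4 genes, with 1 start for PLAUR and 2 each for PLAU and SERPINE2. PLAT had no entry. The promoters are shown because of the known AP-1 and ETS connection, and for PLAU and SERPINE2 the start with the higher GC content is given. Capitals mark an AP-1 motif (TGANTCA, where N is any base) or an ETS motif (GGAAGT), searched on both strands.
PLAUR, chr19:43670170-43670419, minus strand: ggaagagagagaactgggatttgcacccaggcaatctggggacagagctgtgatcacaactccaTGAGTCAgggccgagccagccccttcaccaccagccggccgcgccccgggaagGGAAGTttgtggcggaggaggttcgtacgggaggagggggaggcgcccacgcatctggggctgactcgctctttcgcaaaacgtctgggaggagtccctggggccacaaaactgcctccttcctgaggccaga
PLAU, chr10:73910882-73911131, plus strand: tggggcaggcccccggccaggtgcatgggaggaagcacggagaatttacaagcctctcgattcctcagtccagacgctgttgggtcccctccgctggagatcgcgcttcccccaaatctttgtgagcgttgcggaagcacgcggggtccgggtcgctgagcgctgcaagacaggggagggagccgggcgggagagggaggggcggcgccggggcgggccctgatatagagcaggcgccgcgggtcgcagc
SERPINE2, chr2:224038641-224038890, minus strand: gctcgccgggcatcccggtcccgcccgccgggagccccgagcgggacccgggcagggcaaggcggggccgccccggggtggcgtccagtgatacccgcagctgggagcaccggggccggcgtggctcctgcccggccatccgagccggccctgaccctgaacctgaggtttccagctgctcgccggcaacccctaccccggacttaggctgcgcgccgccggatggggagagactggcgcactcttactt
In the PLAUR sequence the AP-1 motif began 186 bases and the ETS motif 133 bases before the start. Neither motif was found in the sequences of PLAU and SERPINE2, the unprinted starts included. Bases outside these windows were not searched for any of the genes. Over all 35116 promoter sequences of that length, 6.57% held the AP-1 motif and 19.5% the ETS motif, so a match to the ETS motif in particular is common. GC content was 63.2% for PLAUR, 68.8% for PLAU and 75.2% for SERPINE2 in the printed sequences, where the median of all promoters was 58.0%. These letters describe the windows and do not show binding.

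The first question was how the system differs between cells with and without the oncogene. Both proteases fell in G12V cells and the receptor rose, while the inhibitor SERPINE2 was higher without passing the threshold. Genes are called differentially expressed (DE) here where edgeR's quasi-likelihood test gave an adjusted p below 0.05 together with a log2 fold change beyond 0.5 in either direction. Of the 4 genes 3 were DE, against 11.0% of the 14376 genes tested. The G12V libraries did not overlap the MCF10A libraries for any of the 4, but this held for 54.8% of all genes. The count moved with the method. With DESeq2 all 4 were DE, against 16.0% of all genes, while with library totals alone 2 were, PLAU and PLAT, against 11.7%. With no filter PLAUR and PLAT both had an edgeR adjusted p of 0.0558.

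PLAU lies on the plus strand of chromosome 10 (hg19, 75670862 to 75677258). It had 95.3 and 80.1 CPM in the MCF10A libraries (87.7 ± 10.8, SD, n = 2) and 25.3 and 40.3 CPM in the G12V libraries (32.8 ± 10.6, SD, n = 2). Even the higher G12V library was thus far below the lower MCF10A library. The fall was 2.68-fold, with a 95% interval of 1.69 to 4.23, or -1.42 ± 0.27 (SE) on the log2 scale, at an edgeR adjusted p of 0.0256. It was larger in size than the change of 88.4% of the genes tested. The call depended on MCF10A replicate 1, without which PLAU had a log2 fold change of -1.27 at an edgeR adjusted p of 0.199. Without that library edgeR called 0 of 14883 genes DE, although 2830 had an unadjusted p under 0.05.

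The gene C10orf55 spans PLAU on the opposite strand, and 429 of the 2343 exon bases of the PLAU transcript (18.3%) are shared with it. The library kit does not mark strand, so reads from the shared bases cannot be assigned by direction. C10orf55 had 20 to 36 counts per library in untreated cells against 591 to 2097 for PLAU. These counts do not show how reads from the shared bases were counted, and the levels of PLAU per kilobase below use all 2343 bases.

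PLAT lies on the minus strand of chromosome 8 (hg19, 42032236 to 42065194). It had the highest count of the 4 genes in untreated parental cells, with 136 and 224 CPM (180 ± 62.3, SD, n = 2), and had 33.4 and 70.5 CPM in G12V cells (51.9 ± 26.2, SD, n = 2). The libraries of each group differed widely, by 1.65-fold in MCF10A and 2.11-fold in G12V cells, but the groups stayed apart. The fall was 3.46-fold (95% interval 1.71 to 7.01) or -1.79 ± 0.42 (SE) on the log2 scale, at an edgeR adjusted p of 0.0475. This was the largest change among the 4 genes, and it exceeded that of 91.1% of the genes tested. Without MCF10A replicate 1 the log2 fold change of PLAT was -2.09 at an edgeR adjusted p of 0.160.

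PLAUR, on the minus strand of chromosome 19 (hg19, 44150247 to 44174498), moved the other way. The receptor had 16.9 and 8.76 CPM in MCF10A (12.8 ± 5.76, SD, n = 2) and 34.2 and 37.0 CPM in G12V cells (35.6 ± 1.96, SD, n = 2). The G12V libraries nearly coincided, while the MCF10A libraries lay 1.93-fold apart on 372 and 199 counts. The rise was 2.77-fold (95% interval 1.55 to 4.96) or 1.47 ± 0.34 (SE) on the log2 scale, at an edgeR adjusted p of 0.0481. This call was close to the threshold. Without MCF10A replicate 1 the log2 fold change of PLAUR was 2.04 (edgeR adjusted p = 0.101), and without MCF10A replicate 2 it was 1.07 (edgeR adjusted p = 0.105).

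SERPINE2 lies on the minus strand of chromosome 2 (hg19, 224839765 to 224903357). It had 70.0 and 47.5 CPM in MCF10A (58.8 ± 16.0, SD, n = 2) and 104 and 158 CPM in G12V cells (131 ± 38.5, SD, n = 2). Both G12V libraries were above both MCF10A libraries. The log2 fold change of SERPINE2 was 1.16 (SE 0.29, 95% interval 0.44 to 1.87), and its edgeR adjusted p of 0.0591 missed the threshold. It passed without G12V replicate 1, at a log2 fold change of 1.43 and an edgeR adjusted p of 0.00501, and with DESeq2 at an adjusted p of 0.00553.

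**Figure D1:**
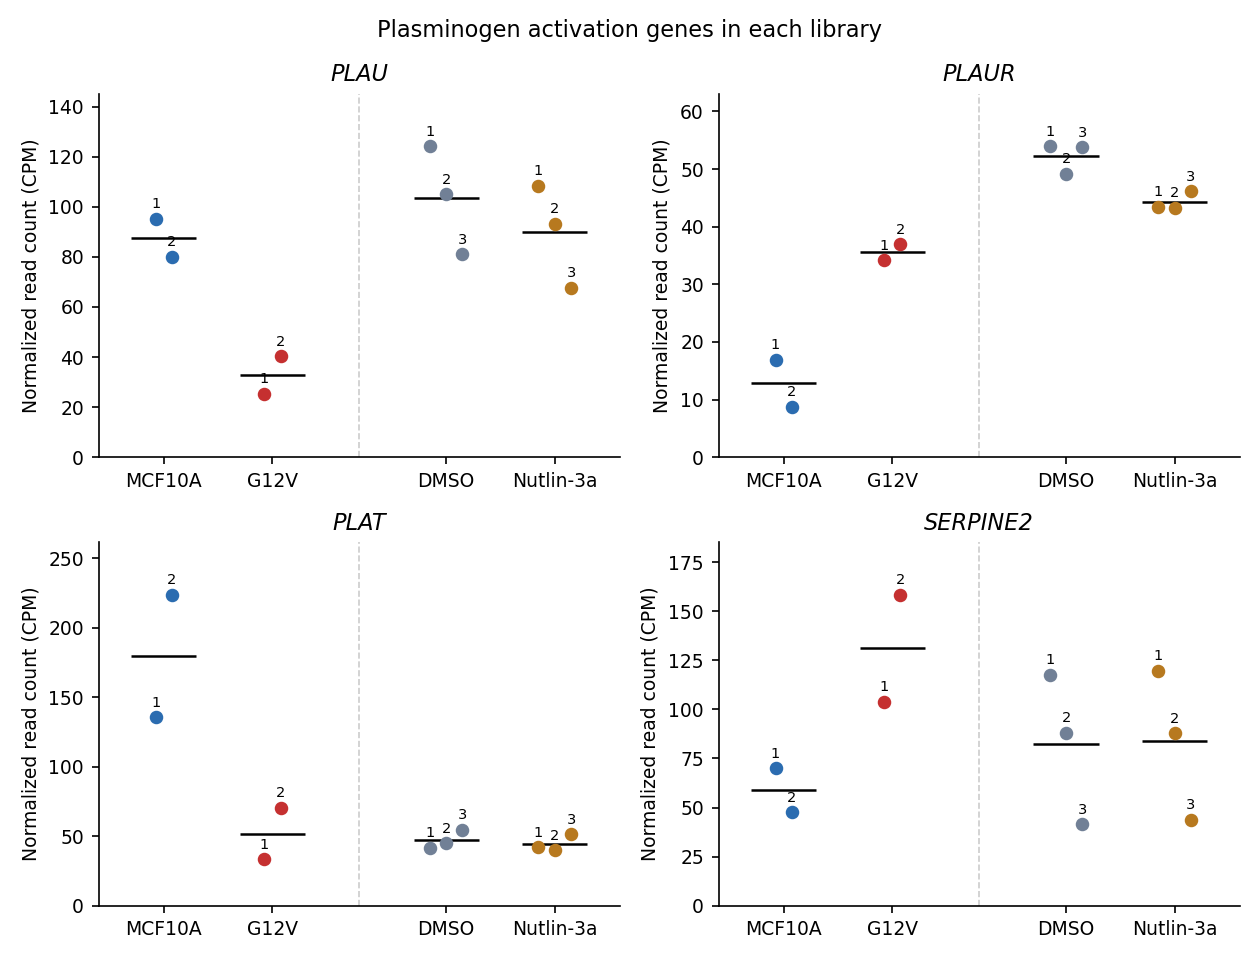
Normalized read counts (CPM, vertical axis from 0) of the 4 genes in each of the 10 libraries, with numbers for the replicates and a line for the group mean. The dashed line separates the untreated cells from the drug experiment, which was normalized on its own. PLAU and PLAT are lower and PLAUR and SERPINE2 higher in both G12V libraries than in both MCF10A libraries, and SERPINE2 is at 118 CPM in DMSO replicate 1 and 41.5 CPM in DMSO replicate 3.

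Levels of different genes were compared per kilobase of transcript. On this scale MCF10A cells had most PLAT, with 58.7 ± 20.4 CPM per kb, followed by PLAU with 37.4 ± 4.60, SERPINE2 with 26.4 ± 7.17 and PLAUR with 9.38 ± 4.21 CPM per kb (SD, n = 2). Taken as mean and SD, PLAT overlapped PLAU and PLAU overlapped SERPINE2, although the single libraries did not, with 44.3 and 73.1 CPM per kb for PLAT, 34.2 and 40.7 for PLAU and 21.3 and 31.5 for SERPINE2. In G12V cells the order per kb was SERPINE2 with 58.9 ± 17.3, PLAUR with 26.0 ± 1.43, PLAT with 17.0 ± 8.56 and PLAU with 14.0 ± 4.53 CPM per kb (SD, n = 2). PLAT and PLAU could not be told apart there, since their libraries overlapped. The proteases thus stood at the head per kb in MCF10A cells and last in G12V cells.

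Ratios within a library do not depend on its depth or normalization. The log2 ratio of PLAUR to PLAU reads was -2.49 and -3.19 in MCF10A and 0.44 and -0.12 in G12V libraries, so the mean rose from -2.84 ± 0.49 to 0.16 ± 0.40 (SD, n = 2), which is 7.99-fold. The log2 ratio of PLAU to SERPINE2 reads went from 0.60 ± 0.22 to -2.01 ± 0.045 (SD, n = 2), a difference of -2.61. That of PLAT to SERPINE2 went from 1.59 ± 0.91 to -1.40 ± 0.33 (SD, n = 2), a difference of -3.0. In these 3 ratios the groups were far apart, but with 2 libraries a group the smallest p of the two-sided exact permutation test is 0.33, which all 3 reached (0.444 adjusted over 4 ratios). The ratio of the proteases to each other, PLAU to PLAT, was -0.996 ± 0.69 in MCF10A and -0.60 ± 0.29 in G12V cells on the log2 scale (SD, n = 2), and here the libraries overlapped (exact permutation p = 0.667, also 0.667 adjusted).

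**Figure D2:**
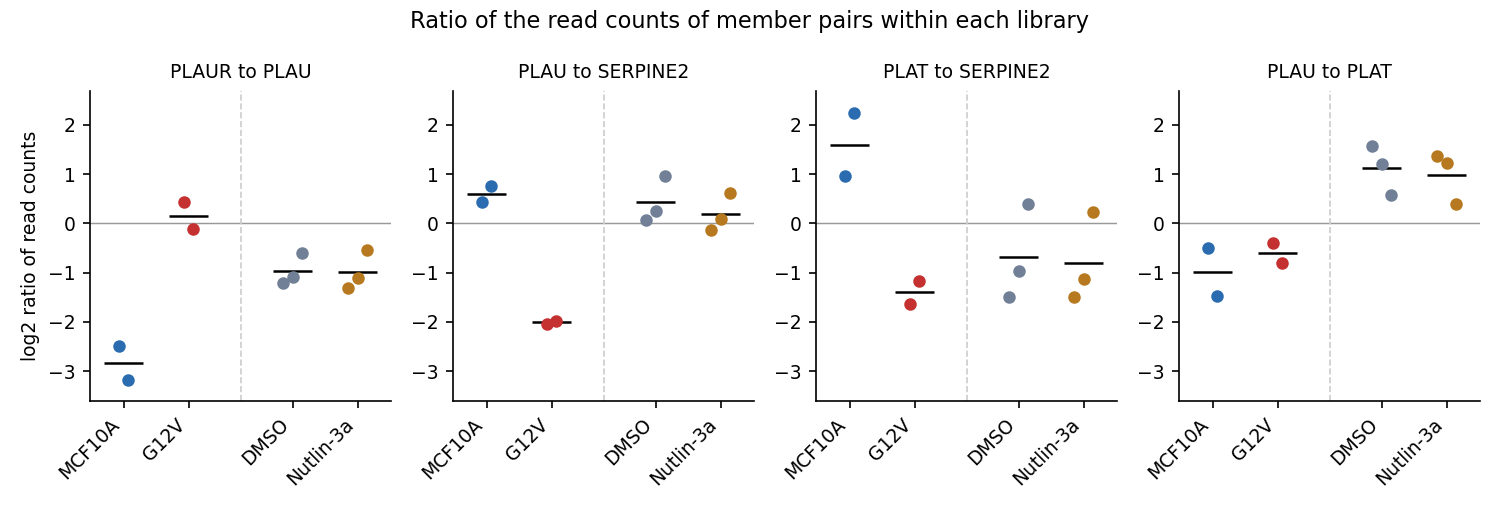
Log2 ratio of the read counts of a pair of genes in each library (vertical axis), with a line for the group mean. The ratio of PLAUR to PLAU is near 0 in G12V cells and below -2.4 in both MCF10A libraries, both proteases fall against SERPINE2 in G12V cells, and none of the ratios separates Nutlin-3a from DMSO.

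The rest of the pathway was read through 5 lists with 35 genes, of which 25 passed the filter. The lists were written with earlier results of these data known, so their shares are no independent comparison with all genes. In G12V cells 7 of the 25 were DE, 1 higher and 6 lower, against 11.0% of all genes. Their median log2 fold change was -0.55, where that of all genes was -0.0011. DESeq2 called 12 of the 25, against 16.0% of all genes.

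Among genes that act on the precursor of urokinase, the protease ST14 (matriptase), a membrane-bound activator of pro-urokinase, had 237 and 255 CPM in MCF10A and 5.22 and 5.80 CPM in G12V cells. On the log2 scale this was a change of -5.48 ± 0.21 (SE, edgeR adjusted p = 4.52e-04), the largest of all genes in the lists. SPINT2, a Kunitz-type inhibitor of such proteases, fell from 458 ± 86.8 to 74.8 ± 31.1 CPM (SD, n = 2), with a log2 fold change of -2.61 (adjusted p = 0.00872). An activator and an inhibitor were thus the 2 DE genes among 6 tested. SPINT1, the related inhibitor, had a log2 fold change of -0.92, and the cathepsins CTSB and CTSL had -0.11 and 0.51, none of them DE. HPN and KLKB1 did not pass the filter.

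The list of other inhibitors does not hold every inhibitor of the system. Of its 6 genes 4 were tested and 2 were DE, both lower. SERPINB2, a serpin that inhibits urokinase, fell from 3.74 ± 2.11 to 0.591 ± 0.110 CPM (SD, n = 2), with a log2 fold change of -2.65 (edgeR adjusted p = 0.0336). SERPINI1 (neuroserpin), which inhibits tPA, fell from 4.19 ± 1.11 to 0.696 ± 0.164 CPM (SD, n = 2), with a log2 fold change of -2.58 (adjusted p = 0.0169). Both were at low levels in all untreated libraries. SERPINF2, the plasmin inhibitor, had a log2 fold change of -2.66 (adjusted p = 0.0596) and SERPINA5, which inhibits urokinase among other proteases, one of 1.81 (adjusted p = 0.121). CPB2 and A2M were not tested.

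Among receptors and partners, LRPAP1, a chaperone of the receptors that clear complexes of urokinase and inhibitor, fell from 124 ± 0.720 to 47.6 ± 2.16 CPM (SD, n = 2), with a log2 fold change of -1.38 (edgeR adjusted p = 0.00689). VLDLR, a clearance receptor, was the DE gene of the lists that rose, with 0.364 and 0.220 CPM in MCF10A and 3.25 and 13.2 CPM in G12V cells, a change of 4.79 ± 0.84 (SE) on the log2 scale (edgeR adjusted p = 0.0200). It rested on 8 and 5 counts in the MCF10A libraries. The main clearance receptor LRP1 had a log2 fold change of 0.79 and was not DE, and 2 of 7 tested genes of that list were. Of 4 tested genes for plasminogen and its surface receptors, edgeR called 0, while 2 had an unadjusted p under 0.05 and DESeq2 called 2. Among all 14376 genes tested, 3676 had an unadjusted edgeR p under 0.05, and DESeq2 called 16.0%. Of the 4 genes S100A10 came closest (log2 fold change -0.86, edgeR adjusted p = 0.0631). PLG, the gene of plasminogen itself, had at most 1 count in any library. Of the relatives of PLAUR in the LY6/uPAR family, LYPD3 fell from 17.6 ± 5.90 to 5.19 ± 1.42 CPM (SD, n = 2), with a log2 fold change of -1.76 (adjusted p = 0.0329), and CD59, LY6E and LY6K were not DE. PLAUR therefore rose while the DE gene of its family fell.

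**Figure D3:**
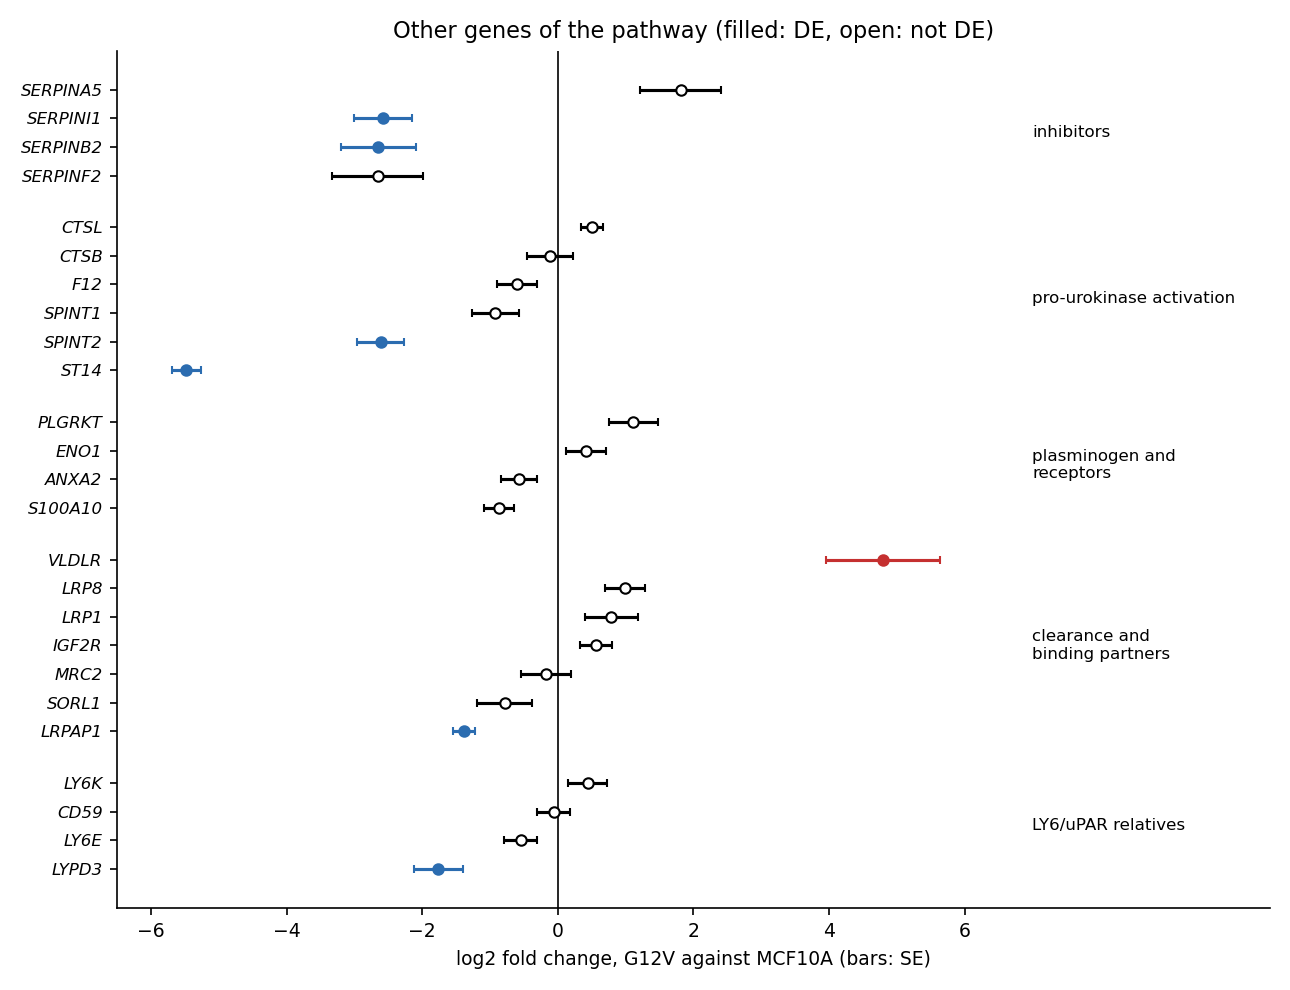
Log2 fold change between G12V and MCF10A cells with its SE (horizontal axis) for the 25 tested genes of the 5 lists, by list. Filled points are DE, red for higher and blue for lower. ST14 lies furthest to the left at -5.48, and VLDLR at 4.79 is the filled point on the right.

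The genes next to the 4 members on the chromosome were read to see whether a stretch of the chromosome moved with them. The edgeR adjusted p of the 8 nearest tested genes ranged from 0.219 to 0.949, so none was DE. Of all 14376 genes tested 11.0% were DE, so no DE gene among 8 is near that share and cannot answer the question alone. CADM4, 6.26 kb from PLAUR, had a log2 fold change of -0.68 (adjusted p = 0.521), opposite in sign to the change of PLAUR. SMG9 on the other side of PLAUR had -0.15. AP3M2, 3.53 kb from PLAT, had a log2 fold change of 0.24, and IKBKB, 63.6 kb away on the other side, had -0.18. CAMK2G and VCL, 36.5 and 80.6 kb from PLAU, had 0.43 and -0.064. MRPL44, 7.33 kb from SERPINE2, had -0.033, and CUL3, 432 kb away on the other side, had 0.13. The overlapping C10orf55 was at -0.50 ± 0.44 (SE) on the log2 scale (edgeR adjusted p = 0.560) and was not DE either.

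The genes most like each member over all 10 libraries were found by the root mean square difference of log2 (CPM + 1), each gene being centred within each experiment, among 8730 genes with at least 10 CPM on average in both. For PLAU these were TSPAN13, PTPN6 and TFCP2L1, with differences of 0.15, 0.16 and 0.18. For PLAT they were GSN, TC2N and F11R, at 0.14, 0.15 and 0.15. For PLAUR they were TNFRSF11A, MLKL and RBMS1, each at 0.15. For SERPINE2 they were GCLM, TRIB3 and NQO1, at 0.15, 0.21 and 0.23. The median difference over all genes was between 0.54 and 0.68 for the 4 members. No member was among the 3 genes most like another. PLAU and PLAT differed by 0.42, which ranked PLAT at 906 for PLAU and PLAU at 342 for PLAT. PLAUR and SERPINE2 differed by 0.53, which ranked SERPINE2 at 4039 for PLAUR and PLAUR at 991 for SERPINE2. These are descriptions over libraries of which 4 differ by the oncogene.

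The second question was whether the genes respond when p53 is released. After 4 h of Nutlin-3a edgeR called 0 of the 4 members, with 1 of them at an unadjusted p under 0.05, and DESeq2 also called 0, with 0 at that level. Of all 13529 genes tested, 0.170% were DE by edgeR, and 463 had an unadjusted p under 0.05, or 417 by DESeq2. Libraries of the same replicate number varied together in this experiment. A fit with that number as a block called 1.22% of all genes, 165 in place of 23, and still 0 of the members. In that fit 2 members had an unadjusted p under 0.05, as had 1584 of all genes. CDKN1A and MDM2 were DE in the same libraries.

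PLAUR had 53.9, 49.2 and 53.7 CPM in DMSO (52.3 ± 2.67, SD, n = 3) and 43.5, 43.3 and 46.2 CPM in Nutlin-3a libraries (44.3 ± 1.63, SD, n = 3). All Nutlin-3a libraries were below all DMSO libraries, as was the case in either direction for 8.07% of the genes tested. The log2 fold change of PLAUR was -0.24 (SE 0.099, 95% interval -0.46 to -0.013) and the edgeR adjusted p was 1.00, or 0.228 with the block. By pair PLAUR changed by -19.4%, -12.0% and -14.0%.

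PLAU had 124, 105 and 81.2 CPM in DMSO (103 ± 21.5, SD, n = 3) and 108, 93.2 and 67.6 CPM in Nutlin-3a libraries (89.8 ± 20.6, SD, n = 3). The groups overlapped, and number 1 was highest and number 3 lowest in both treatments. Its log2 fold change was -0.20 (SE 0.20) without the block and -0.21 (SE 0.075, edgeR adjusted p = 0.267) with it. By pair PLAU changed by -12.6%, -11.2% and -16.6%. PLAU and PLAUR were lower in all 3 pairs, as were 17.7% of all genes tested.

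PLAT had 41.8, 45.2 and 54.7 CPM in DMSO (47.2 ± 6.69, SD, n = 3) and 42.2, 40.0 and 51.3 CPM in Nutlin-3a libraries (44.5 ± 6.01, SD, n = 3), with full overlap. The log2 fold change of PLAT was -0.085 (SE 0.14, 95% interval -0.42 to 0.25).

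SERPINE2 varied most between the numbers, with 118, 88.0 and 41.5 CPM in DMSO (82.4 ± 38.4, SD, n = 3) and 120, 87.9 and 43.8 CPM in Nutlin-3a libraries (83.8 ± 38.1, SD, n = 3). Within a number the treatments were nearly equal, and between numbers 1 and 3 of DMSO the level differed 2.83-fold. The coefficient of variation in DMSO was 46.6%, larger than that of 95.2% of the genes tested. The log2 fold change of SERPINE2 was 0.025 (SE 0.42, 95% interval -0.94 to 0.99) without the block and 0.032 (SE 0.077, 95% interval -0.14 to 0.20) with it. Both estimates lie close to 0, and both intervals lie below the estimate of 1.16 between MCF10A and G12V cells. That estimate has a 95% interval of 0.44 to 1.87, which the interval without the block overlaps and the one with it does not. The 4 ratios of read counts between members differed by -0.24 to -0.028 on the log2 scale (two-sided exact permutation p from 0.6 to 0.9, 0.9 after adjustment, with 0.1 the lowest that 3 against 3 allow).

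**Figure D4:**
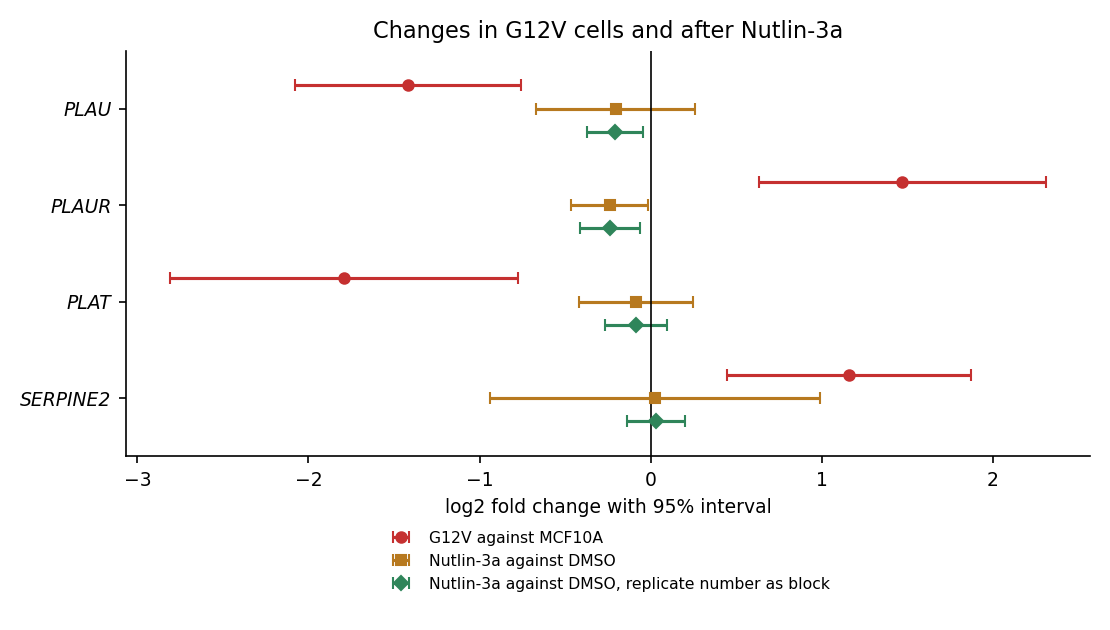
Log2 fold change with its 95% interval (horizontal axis) of the 4 genes between G12V and MCF10A cells (circles), and between Nutlin-3a and DMSO without (squares) and with a block for the replicate number (diamonds). The circles lie between -1.79 and 1.47, and all squares and diamonds between -0.24 and 0.032.

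In the pathway lists edgeR called 0 of 25 tested genes after Nutlin-3a, with 0 at an unadjusted p under 0.05. DESeq2 and the fit with the block also called 0, with 0 and 1 at that level. Over all 13529 genes, 463 reached it by edgeR, 417 by DESeq2 and 1584 with the block. The median log2 fold change of the 25 was 0.090, beside 0.0066 for all genes. SERPINB2 again followed the number, with 17.4, 52.8 and 68.0 CPM in DMSO and 15.6, 46.6 and 63.4 CPM in Nutlin-3a libraries.

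The DMSO libraries are parental cells too, and their levels can be set beside those of the untreated parental cells, with the limit that the experiments were counted on different annotations and normalized apart, so no test was made. PLAUR had 49.2 to 53.9 CPM in DMSO, above the 8.76 to 16.9 CPM of untreated MCF10A and also above the 34.2 to 37.0 CPM of G12V cells. On the scale of log2 (CPM + 1), the PLAUR mean of DMSO was 1.95 above that of MCF10A, a larger difference than in 96.6% of 12071 genes found in both. PLAT had 41.8 to 54.7 CPM in DMSO, below the 136 to 224 CPM of MCF10A and inside the range of G12V cells, a difference of -1.91 on that scale and larger in size than in 96.4% of genes. For PLAU and SERPINE2 the difference was 0.24 and 0.48, near the median size over all genes of 0.40. For PLAUR and PLAT the parental cells of the experiments thus differed by more than the log2 fold changes of 1.47 and -1.79 between G12V and MCF10A cells, in the same directions. Of 1310 DE genes found in both, 397 (30.3%) had a DMSO mean nearer to G12V than to MCF10A, and PLAUR and PLAT were among them. The log2 ratio of PLAT to SERPINE2 reads was -1.49, -0.96 and 0.40 in DMSO, beside means of 1.59 in MCF10A and -1.40 in G12V cells. That of PLAUR to PLAU was -0.96 ± 0.32 in DMSO (SD, n = 3), between -2.84 in MCF10A and 0.16 in G12V cells. That of PLAU to SERPINE2 was 0.43 ± 0.47 in DMSO (SD, n = 3), near the 0.60 of MCF10A and far from the -2.01 of G12V cells. Per kilobase the order in DMSO was PLAU with 44.1 ± 9.19, PLAUR with 38.2 ± 1.95, SERPINE2 with 37.0 ± 17.2 and PLAT with 15.4 ± 2.18 CPM per kb (SD, n = 3). PLAT stood clearly apart from PLAU and PLAUR. In DMSO replicate 3 it was at 17.9 CPM per kb, nearly equal to SERPINE2 at 18.6. SERPINB2 showed such a gap as well, with 5.23 and 2.25 CPM in untreated MCF10A against 17.4 to 68.0 CPM in DMSO. VLDLR had 5.86, 2.21 and 0.583 CPM in DMSO, beside 0.364 and 0.220 CPM in untreated MCF10A and 3.25 and 13.2 CPM in G12V cells. The other DE genes of the lists, ST14, SPINT2, LRPAP1, LYPD3 and SERPINI1, had DMSO means nearer to MCF10A than to G12V cells.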

How the data were processed

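Poly(A) RNA was sequenced from 10 libraries. Per the labels, the authors used TopHat on hg19 and HTSeq, and deposited raw, unnormalized counts of reads per gene, one table for untreated cells and another, on a different annotation, for the drug experiment. Annotations and the strand setting are not given in the sources used here, and 0 columns were left unused. Nothing ties the libraries to separate cultures beyond the label of biological replicas, so p-values measure the spread between these libraries.

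The counts of each comparison were fitted separately by edgeR 4.0.16 (R 4.3.3, filterByExpr, TMM, quasi-likelihood test, Benjamini-Hochberg adjustment over all genes, prior count 0.125). The SE is the size of the log2 fold change divided by the root of its F statistic. The fits were tested on simulated data first. Ratios carry 0.5 added to each count. Transcript lengths are those of canonical transcripts (GENCODE on GRCh37). The alternatives were DESeq2 1.42.0, the exact test, other normalizations and filters, a prior count of 2, the replicate number as a block and leaving out each library.

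In the drug experiment same-numbered DMSO and Nutlin-3a libraries deviated together from their group means (r = 0.62, 0.60 and 0.64, against -0.47 to -0.19 for other pairs), so the numbers of the labels pair them.

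The members, lists and tests were chosen with earlier results of these data known. The text names the members, DE genes of the lists and those a sentence on a list needs, nearest and overlapping genes, the 3 genes most like each member, markers and HRAS, CDKN1A and MDM2. A further gene of the pathway is not reported here.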

Additional observations from a re-analysis of the deposited data

How the results depend on the processing

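Between G12V and MCF10A, the DE genes numbered 1575, or 2526 by the exact test, and 0 to 2129 when a library was left out, 0 only without MCF10A replicate 1 (2830 at an unadjusted p under 0.05). In all 13 alternatives the 4 members kept their direction. PLAU kept its call in 12, all but the fit without MCF10A replicate 1, with a log2 fold change of -1.80 to -1.12 over the omissions. PLAT kept it in 11 and lost it with no filter (-1.79) and without MCF10A replicate 1 (-2.43 to -1.35 over the omissions). PLAUR lost it with upper-quartile factors (1.47), library totals alone (1.48), no filter (1.47) and without either MCF10A library (1.07 to 2.04 over the omissions). SERPINE2 gained a call with the CPM filter (1.18), DESeq2 (1.15), the exact test (1.16), the replicate block (1.15) and without G12V replicate 1 (0.82 to 1.48 over the omissions). The cause of these changes was not tested.

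The replicate numbers of untreated cells mark nothing shared in the labels. Same-numbered libraries deviated together from their group means (correlation 0.49), but with 2 pairs this cannot settle whether the numbers pair the libraries. As a block the numbers gave 4158 DE genes among the 14376 tested, including all 4 members and 20 of the 25 list genes. Of the tested genes by list, the block called 4 of 4 inhibitors and 5 of 6 for pro-urokinase activation. It called 3 of 4 for plasminogen and receptors, 6 of 7 for clearance and 2 of 4 of the LY6/uPAR family. DESeq2 gave 12 list genes, with 4 inhibitors and 2 of plasminogen and receptors, against 16.0% of all genes. Library totals gave 1 of plasminogen and receptors, against 11.7% of all genes.

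After Nutlin-3a, 23 genes were DE, 99 with no filter, 88 with DESeq2, 83 with the exact test, 165 with the replicate block and 7 to 11 when a library was left out. The block changed no call of a member. PLAU and PLAUR kept their sign and stayed not DE in all 15 alternatives. PLAT reversed without DMSO replicate 3 (-0.20 to 0.035 over the omissions). SERPINE2 reversed with library totals (-0.013) and in 3 omissions (-0.32 to 0.37 over all 6), never past the threshold.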
